A study of Mus musculus with 20 samples.

Results

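The Cyp1 genes and the core genes of the aryl hydrocarbon receptor (Ahr) pathway were followed in the livers of mice given CMP013, a small molecule inhibitor of the β-secretase BACE1. All probe sets whose only gene symbol was Cyp1a1, Cyp1a2, Cyp1b1, Ahr, Arnt, Tiparp or Ahrr were taken, which gave 16 of the 45037 probe sets on the array for 7 of its 18193 named genes. Cyp1a1, Cyp1a2 and Ahrr had 1 probe set each, Ahr had 2, Cyp1b1 and Tiparp had 3 each, and Arnt had 5. Ahr is a transcription factor that waits in the cytosol with HSP90 chaperones until a ligand such as a dioxin or a planar aromatic compound binds it. It then enters the nucleus, pairs with Arnt and binds short DNA elements near its target genes. In liver the best known targets are the P450 genes Cyp1a1 and Cyp1a2, and the targets Tiparp and Ahrr act back on the receptor to limit its activity.

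The study asked which liver responses to CMP013 need the pregnane X receptor (PXR), a nuclear receptor that induces drug metabolizing enzymes. The question for these 16 probe sets was whether the Ahr battery moved as well, in mice with PXR or without it. The comparison covered 4 groups of 5 male mice, 9 weeks old when dosing began, with 1 array per animal. The WT mice were C57BL/6 with the genotype PXR+/+, and the PXR-KO mice were PXR-/-, labelled C57BL/6NTac in 1 field and C57BL/6 in another, so that genotype and substrain cannot be told apart. CMP013 mice received 150 mg/kg and vehicle mice 0 mg/kg (cellulose and polysorbate in acidified water) by oral gavage every 24 h, and livers were taken at 96 h after a short fast. Whole liver RNA was hybridized, so fewer cells of a type and less RNA per cell cannot be told apart.

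The deposited value of an animal is a ratio to the authors' average of its own genotype's 5 vehicle animals, given here as log2. A value of 0 is that average and 1 is a doubling of it. The mean of the vehicle animals' own values can differ from 0. Over the 16 probe sets their mean ratio ran from 0.926 to 1.04 in WT and from 0.920 to 1.12 in PXR-KO. Counts of animals past 1.25-fold are taken against the authors' average. No level of a gene, no level difference between the genotypes under vehicle, no check of the deleted receptor gene, no liver or cell marker level, and no comparison of signal with background can be read from such ratios. The spread of the log2 ratios over all probe sets (SD) ran from 0.334 to 0.463 in the 10 vehicle arrays, from 0.587 to 0.704 in WT CMP013 and from 0.468 to 0.568 in PXR-KO CMP013. In an earlier analysis of these arrays WT vehicle animals 3 and 4 stood apart from the rest, as did PXR-KO vehicle animals 2 and 4. Each call among the 16 probe sets and the listed genes that was lost without these 4 animals is given below with its adjusted p without them. Leaving them out also makes the vehicle groups smaller, and fewer calls can follow from that alone. The log2 fold change is the CMP013 mean minus the vehicle mean, tested with limma and adjusted by the Benjamini-Hochberg method over all 45037 probe sets, and a gene is said to rise or fall where the adjusted p was under 0.05. The difference of the responses is the WT log2 fold change minus that of PXR-KO.

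The DNA element that Ahr and Arnt bind has the core GCGTG, and 4 promoters are shown to place it: the classical targets Cyp1a1 and Cyp1a2, and the feedback genes Tiparp and Ahrr. Each is the RefSeq sequence (GRCm38.p6) of the 250 bases before the start, written 5′ to 3′ on the strand of the gene, with GCGTG, or CACGC where the core lies on the other strand, in capitals. They are chr9:57697363-57697612 on the plus strand for Cyp1a1, chr9:57683656-57683905 on the minus strand for Cyp1a2, chr3:65528197-65528446 on the plus strand for Tiparp and chr13:74292332-74292581 on the minus strand for Ahrr.
Cyp1a1: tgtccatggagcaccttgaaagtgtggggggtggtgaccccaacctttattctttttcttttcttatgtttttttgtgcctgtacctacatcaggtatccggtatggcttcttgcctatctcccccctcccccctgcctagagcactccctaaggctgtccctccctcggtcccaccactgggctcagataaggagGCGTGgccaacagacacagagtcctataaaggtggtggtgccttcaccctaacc
Cyp1a2: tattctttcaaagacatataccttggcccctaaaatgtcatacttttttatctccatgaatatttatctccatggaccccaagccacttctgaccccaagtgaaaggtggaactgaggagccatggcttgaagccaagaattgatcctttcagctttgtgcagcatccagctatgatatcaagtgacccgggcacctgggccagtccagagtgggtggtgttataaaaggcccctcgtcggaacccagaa
Tiparp: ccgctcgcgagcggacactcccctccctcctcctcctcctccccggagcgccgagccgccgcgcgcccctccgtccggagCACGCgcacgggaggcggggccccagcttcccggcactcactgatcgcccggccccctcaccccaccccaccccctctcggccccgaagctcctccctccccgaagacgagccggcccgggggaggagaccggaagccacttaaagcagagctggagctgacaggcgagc
Ahrr: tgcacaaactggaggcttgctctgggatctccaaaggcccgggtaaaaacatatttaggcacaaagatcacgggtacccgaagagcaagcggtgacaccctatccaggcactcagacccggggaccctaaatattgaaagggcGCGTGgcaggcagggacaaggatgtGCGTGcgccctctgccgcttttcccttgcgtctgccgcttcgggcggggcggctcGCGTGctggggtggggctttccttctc
The core was searched on both strands from 250 bases before to 50 bases after the start. Cyp1a1 held 1 copy, whose first base lies at position -54 from the start, Cyp1a2 held 0, Tiparp held 1 on the other strand at position -170, and Ahrr held 3 at positions -107, -82 and -27. Cyp1b1 held 1 on the other strand at position -76 and Arnt 1 at position -29. Ahr was not among the promoters used here. The core is common: 32.4% of 32851 mouse promoters of this length held it at least once, and 3.91% held 3 or more. A match of 5 letters is a description of the window and not a binding site, and the enhancer for which Cyp1a1 is known lies further upstream than the window.

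The genes lie on 5 chromosomes of GRCm38.p6. Cyp1a1 (chr9:57687928-57703824) and Cyp1a2 (chr9:57676937-57683655) are neighbours read in opposite directions, with 13957 bases between the starts used above. The RefSeq record of Cyp1a1 begins before the start used for its promoter, so the printed window lies within that record. Cyp1b1 lies at chr17:79706940-79715061, Ahr at chr12:35497979-35534989, Arnt at chr3:95434367-95497240, Tiparp at chr3:65528447-65555518 and Ahrr at chr13:74211118-74292331.

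CMP013 left the Cyp1 genes without a call in either genotype, lowered 1 Arnt probe set in WT mice, and raised that Arnt probe set and 2 of the 3 Tiparp probe sets in mice without PXR. Of the 16 probe sets, 0 rose and 1 fell in WT, which is 6.25% against 14.4% of all probe sets (7.67% higher and 6.72% lower), and 2 had an unadjusted p under 0.05. Treated and vehicle animals did not overlap for 1 of 16, against 14.7% of all probe sets. In PXR-KO mice 3 were higher and 0 lower, which is 18.8% against 3.65% of all probe sets (2.12% higher and 1.54% lower), 7 had an unadjusted p under 0.05, and 4 of 16 did not overlap, against 7.57%. For the difference, 0 were higher and 3 lower, which is 18.8% against 11.0% of all probe sets (5.47% higher and 5.49% lower), and 4 had an unadjusted p under 0.05. The 3 calls of PXR-KO and the 3 of the difference each belong to 2 genes, Arnt and Tiparp, and the 2 Tiparp probe sets called in PXR-KO share a source sequence. The median log2 fold change of the 16 in WT was -0.01, the value over all probe sets also being -0.01. Without PXR it was 0.19, beside 0.01 over all probe sets.

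**Figure D1:**
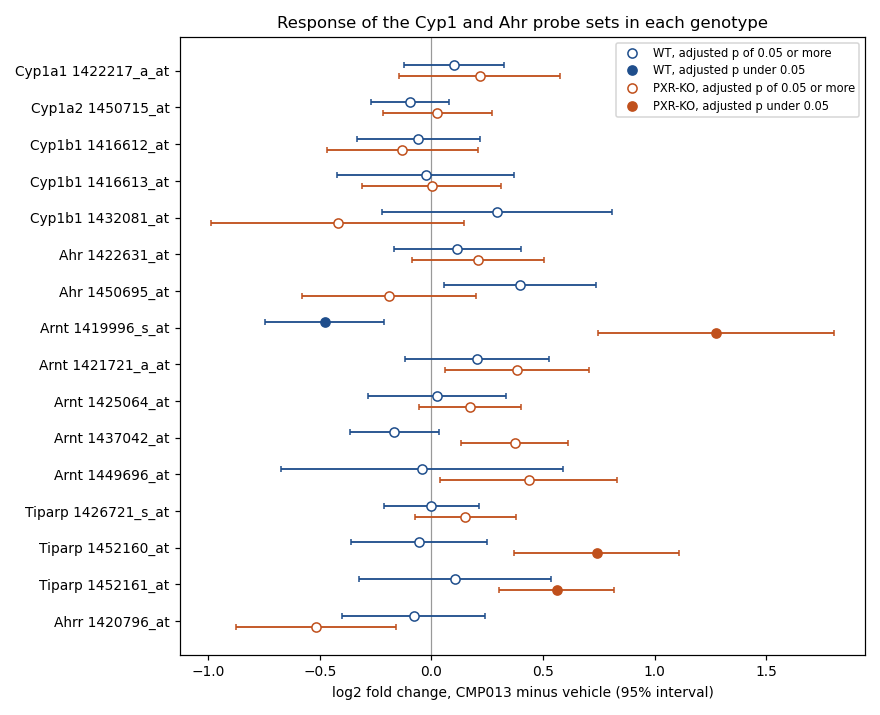
Log2 fold change of CMP013 against vehicle with its 95% interval (horizontal axis) for each of the 16 probe sets, WT in blue and PXR-KO in orange, filled where the limma adjusted p was under 0.05. The Cyp1 intervals cross 0 in both genotypes, and the filled points are Arnt 1419996_s_at in both genotypes and Tiparp 1452160_at and 1452161_at in PXR-KO.

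Cyp1a1 and Cyp1a2 did not pass the test in either genotype. Cyp1a1 encodes the P450 that oxidizes polycyclic aromatic hydrocarbons and is the most widely used readout of Ahr activity. In WT mice the log2 ratios of its probe set 1422217_a_at were 0.18, 0.01, -0.15, -0.11 and -0.14 in the vehicle animals and -0.06, 0.18, -0.10, 0.07 and 0.19 in the CMP013 animals. The groups overlapped over most of their range, and no treated WT animal was past 1.25-fold. That is the size part of the study's own counting rule, which also asks for a platform p-value not used here. The log2 fold change was 0.10 with a standard error (SE) of 0.10 (n = 5 against 5, limma adjusted p = 0.579), and its 95% interval, in fold, ran from 0.918 to 1.25.

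In PXR-KO mice Cyp1a1 was at 0.05, -0.21, 0.11, -0.01 and -0.09 under vehicle and at -0.22, 0.37, -0.16, 0.35 and 0.59 under CMP013. The treated animals split: 3 of 5 lay above 1.25-fold and above every vehicle animal, and the other 2 lay among or below the lowest vehicle animals. The log2 fold change was 0.22, SE 0.16 (limma adjusted p = 0.500), with a 95% interval from 0.903 to 1.49 in fold. The difference of the responses was -0.11 (95% interval -0.52 to 0.29, limma adjusted p = 0.762). The probe set was a quiet one, since 84.8% of all probe sets varied more among vehicle animals.

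Cyp1a2, which oxidizes aromatic amines and caffeine and is made in unexposed liver by hepatocytes near the central vein, was quieter still, with 92.6% of probe sets more variable. Its probe set 1450715_at read 0.05, 0.10, -0.08, -0.02 and -0.04 in WT vehicle animals and 0.02, -0.13, -0.04, -0.16 and -0.16 in WT CMP013 animals. In PXR-KO mice it read -0.19, 0.01, 0.02, 0.10 and 0.07 under vehicle and -0.18, 0.11, 0.16, -0.17 and 0.23 under CMP013. No animal of any group lay past 1.25-fold, and the groups overlapped in both genotypes. The fold changes were 0.934 in WT (95% interval 0.828 to 1.05, limma adjusted p = 0.476) and 1.02 in PXR-KO (0.859 to 1.21, adjusted p = 0.921). The difference was -0.12 on the log2 scale (95% interval -0.39 to 0.14, adjusted p = 0.585).

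Cyp1b1, a P450 that also oxidizes aromatic hydrocarbons and estrogens and is found mostly outside hepatocytes, had 3 probe sets and none passed the test. Probe sets 1416612_at and 1416613_at, made from the same source sequence, had log2 fold changes of -0.06 and -0.03 in WT. In PXR-KO mice they were -0.13 and 0.00. Their 95% intervals lay between -0.47 and 0.37 on the log2 scale. The third, 1432081_at, comes from another source sequence and was noisier. It read 0.04, 0.06, 0.83, -0.03 and 0.64 in WT CMP013 animals and -0.15, -0.18, -0.01, -0.19 and -1.06 in PXR-KO CMP013 animals, while the vehicle animals spread from -0.53 to 0.50 in WT and from -0.44 to 0.73 in PXR-KO. All 4 groups overlapped, and the value of -1.06 came from 1 animal. The log2 fold changes were 0.29 (SE 0.23, limma adjusted p = 0.469) and -0.42 (SE 0.26, adjusted p = 0.391), with a difference of 0.71 (95% interval -0.04 to 1.47, adjusted p = 0.225). The 3 probe sets did not move together over the 20 arrays, with Pearson r of -0.428, 0.438 and 0.071 between them, and the 2 that share a source sequence gave the negative r.

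**Figure D2:**
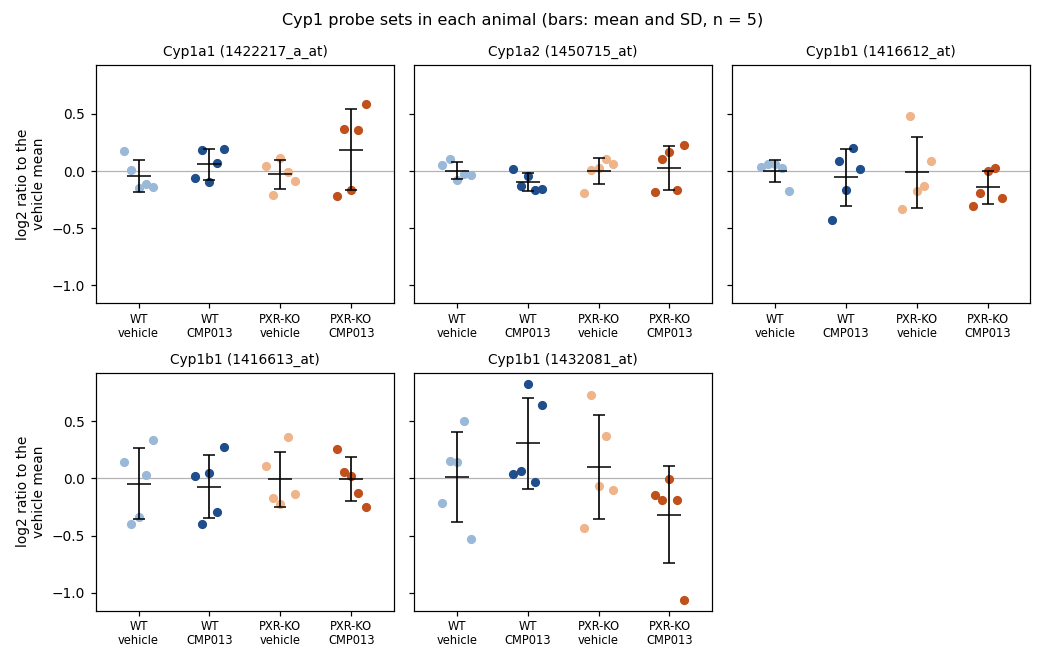
Log2 ratio to the vehicle mean of the same genotype (vertical axis) for the 5 Cyp1 probe sets in each of the 20 animals, with black bars for the mean and SD of each group (n = 5). CMP013 and vehicle animals overlap in every panel, and in PXR-KO mice 3 of 5 treated animals lie above the vehicle animals for Cyp1a1.

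The receptor itself gave a value for each of its 2 probe sets, and neither passed the test. For 1422631_at the log2 fold change was 0.12 in WT (95% interval -0.17 to 0.40, limma adjusted p = 0.617) and 0.21 in PXR-KO mice (-0.09 to 0.50, adjusted p = 0.414). For 1450695_at, WT CMP013 animals read 0.33, 0.62, 0.02, 0.70 and 0.16 against vehicle animals at -0.09, 0.27, 0.01, -0.20 and -0.16. PXR-KO CMP013 animals read -0.68, 0.07, -0.36, -0.50 and 0.11 against vehicle animals at 0.19, -0.34, -0.05, 0.03 and -0.26. Treated animals leaned up in WT and down in PXR-KO, and the groups overlapped in both. The log2 fold change was 0.40 in WT (SE 0.15, unadjusted p = 0.0262, limma adjusted p = 0.119) and -0.19 in PXR-KO (SE 0.17, adjusted p = 0.592), and the difference of 0.59 missed the threshold (95% interval 0.09 to 1.08, adjusted p = 0.124). Both probe sets derive from 1 source sequence, and their values had a Pearson r of -0.206 over the 20 arrays, so the lean of 1450695_at was not seen in its partner.

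Arnt, the partner that Ahr needs to bind DNA and that the hypoxia factors share, was the gene with the widest separation. Probe set 1419996_s_at read -0.03, -0.01, -0.14, -0.44 and 0.22 in WT vehicle animals and -0.47, -0.48, -0.65, -0.60 and -0.59 in WT CMP013 animals. In PXR-KO mice it read 0.06, -0.97, 0.09, -0.01 and 0.23 under vehicle and 1.48, 1.44, 0.75, 0.94 and 1.16 under CMP013. All treated animals lay below every vehicle animal in WT and above every vehicle animal in PXR-KO.

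The signal of 1419996_s_at fell 1.39-fold in WT (log2 fold change -0.48, SE 0.12, limma adjusted p = 0.0251) and rose 2.42-fold in PXR-KO mice (log2 fold change 1.27, SE 0.24, 95% interval 1.68 to 3.49 in fold, adjusted p = 0.0207). The difference was -1.75 (SE 0.27, adjusted p = 0.000417). The _s_ in its name marks a probe set whose probes can match more than 1 transcript, so its signal may include RNA other than Arnt. PXR-KO vehicle animal 2, at -0.97, stood apart from its group. Without that animal the log2 fold change in PXR-KO was 1.06 (adjusted p = 0.0169) and the difference -1.54 (adjusted p = 0.000104). The WT call was lost when vehicle animal 1, 2 or 5 or CMP013 animal 3 or 4 was left out (adjusted p up to 0.0601), and the PXR-KO call when CMP013 animal 1 or 2 was (adjusted p = 0.0507 and 0.0589), whereas the difference was called in each of the 20 fits that left out 1 animal. Quantile normalization ended both calls (adjusted p = 0.266 in WT and 0.0627 in PXR-KO), and leaving out the 4 vehicle animals that stood apart ended that in PXR-KO (adjusted p = 0.0511).

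The other 4 Arnt probe sets carry no _s_ mark and had smaller estimates. Probe set 1437042_at read 0.04, 0.06, 0.03, -0.10 and -0.09 in WT vehicle animals and -0.31, -0.17, -0.09, -0.32 and 0.00 in WT CMP013 animals. In PXR-KO mice it read -0.04, 0.08, -0.22, 0.22 and -0.08 under vehicle and 0.43, 0.42, 0.38, 0.47 and 0.13 under CMP013. The 4 highest PXR-KO treated animals lay above every vehicle animal, and in WT the groups overlapped. The log2 fold changes were -0.17 in WT (SE 0.09, limma adjusted p = 0.271) and 0.37 in PXR-KO (SE 0.11, adjusted p = 0.0885), and the responses differed by -0.54 (SE 0.13, adjusted p = 0.0126), a call lost under quantile normalization (adjusted p = 0.112).

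Probe sets 1421721_a_at, 1425064_at and 1449696_at did not pass in any comparison. Their log2 fold changes were 0.21, 0.02 and -0.04 in WT (limma adjusted p = 0.409, 0.940 and 0.947). In PXR-KO mice they were 0.38, 0.17 and 0.44 (adjusted p = 0.178, 0.377 and 0.207), so all 5 Arnt estimates were above 0 there. Their differences were -0.18, -0.15 and -0.48 (adjusted p = 0.644, 0.630 and 0.420). Probe set 1449696_at shares its source sequence with 1419996_s_at, and the Pearson r between them over the 20 arrays was 0.460, against 0.746 between 1437042_at and 1419996_s_at.

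Tiparp rose in PXR-KO mice by 2 of its 3 probe sets. It encodes a mono-ADP-ribosyltransferase that is induced by Ahr ligands and promotes the loss of the receptor, and it is also known to respond to other stimuli such as hypoxia. Probe set 1452160_at read 0.09, -0.52, 0.22, 0.08 and 0.08 in PXR-KO vehicle animals and 0.62, 0.85, 0.35, 1.00 and 0.84 in PXR-KO CMP013 animals. In WT it read 0.27, -0.06, -0.20, -0.21 and 0.12 under vehicle and -0.03, -0.01, -0.04, 0.14 and -0.44 under CMP013. The groups were apart in PXR-KO mice, where all 5 treated animals were past 1.25-fold, and overlapped in WT. The rise was 1.67-fold in PXR-KO (95% interval 1.29 to 2.16, limma adjusted p = 0.0402). The WT log2 fold change was -0.06 (95% interval -0.36 to 0.25, adjusted p = 0.838), and the responses differed by -0.80 (SE 0.22, adjusted p = 0.0233).

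Probe set 1452161_at read -0.09, -0.34, 0.15, -0.15 and -0.22 in PXR-KO vehicle animals and 0.35, 0.42, 0.23, 0.56 and 0.61 in PXR-KO CMP013 animals. Again no treated animal overlapped the vehicle animals. It rose 1.48-fold (95% interval 1.23 to 1.76, limma adjusted p = 0.0303), was at a log2 fold change of 0.10 in WT (SE 0.19, adjusted p = 0.784), and its difference of -0.46 did not pass (adjusted p = 0.222). The third probe set, 1426721_s_at, carries the _s_ mark, so its signal may include RNA other than Tiparp. It had log2 fold changes of 0.00 in WT and 0.15 in PXR-KO (95% interval -0.07 to 0.38, adjusted p = 0.441). All 3 come from 1 source sequence. The 2 that rose had a Pearson r of 0.873 with each other and of 0.223 and 0.300 with 1426721_s_at.

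Both Tiparp calls were close to the threshold. PXR-KO vehicle animal 2 was again the lowest for 1452160_at, at -0.52, and without it the log2 fold changes were 0.61 and 0.51 (limma adjusted p = 0.0584 and 0.0648) for 1452160_at and 1452161_at. The call of 1452160_at was lost without any single PXR-KO animal except CMP013 animal 3, and that of 1452161_at without any except CMP013 animal 3 and vehicle animal 3. Over these fits the log2 fold changes ran between 0.61 and 0.84 for the first and between 0.51 and 0.63 for the second. Leaving out the 4 vehicle animals that stood apart ended both calls (adjusted p = 0.126 and 0.140), as did quantile normalization (0.134 and 0.0986). The difference of 1452160_at was called in all 20 fits without 1 animal and lost under quantile normalization (adjusted p = 0.152).

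Ahrr, the repressor that competes with Ahr for Arnt, is a sensitive Ahr target in many tissues, and its promoter window held the most copies of the core among those printed. Its probe set 1420796_at read -0.14, 0.16, -0.14, 0.30 and 0.00 in PXR-KO vehicle animals and -0.67, -0.27, -0.29, -0.95 and -0.22 in PXR-KO CMP013 animals. Every treated animal lay below every vehicle animal, yet the log2 fold change of -0.52 did not pass (SE 0.16, unadjusted p = 0.00908, limma adjusted p = 0.110). WT CMP013 animals read -0.40, 0.20, -0.16, 0.16 and -0.35 against vehicle animals between -0.27 and 0.17, with a log2 fold change of -0.08 (95% interval -0.40 to 0.24, adjusted p = 0.776). The difference was 0.44 (95% interval -0.02 to 0.90, adjusted p = 0.221).

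**Figure D3:**
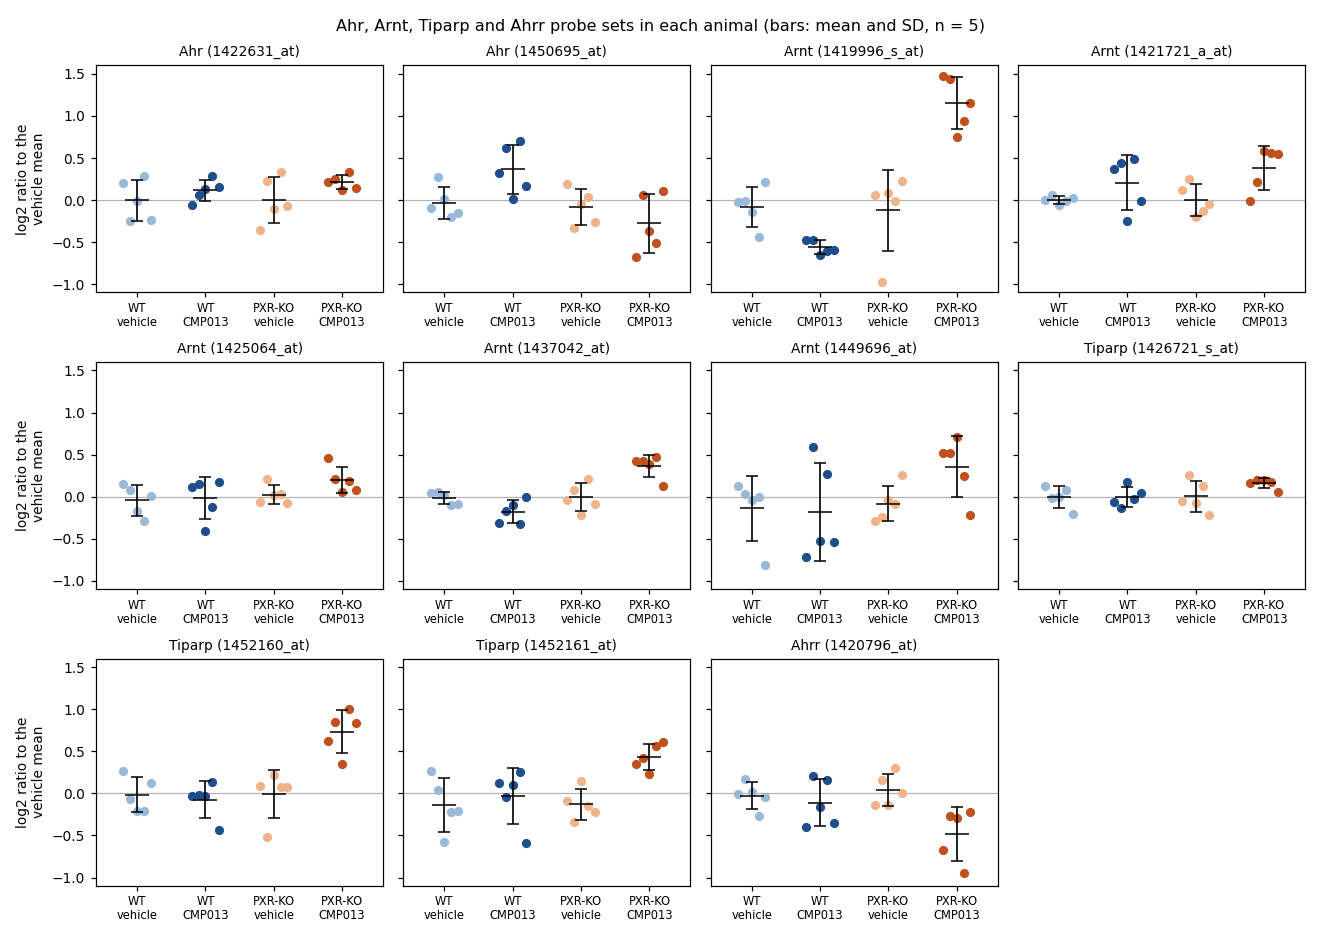
Log2 ratio to the vehicle mean of the same genotype (vertical axis) for the 11 probe sets of Ahr, Arnt, Tiparp and Ahrr in each animal, with black bars for the mean and SD of each group (n = 5). PXR-KO CMP013 animals stand above their vehicle animals for Arnt 1419996_s_at and for Tiparp 1452160_at and 1452161_at, and below them for Ahrr, while in WT the groups are apart for Arnt 1419996_s_at alone.

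The rest of the pathway was read from lists, each gene by 1 probe set naming that gene alone. The counts below stand beside 14.4% of all probe sets called in WT, 3.65% in PXR-KO and 11.0% for the difference. Where a gene had several probe sets, those without _s_ or _x_ came first, and then the smallest spread among vehicle animals decided. That spread enters the test, so the choice favours calls, whereas the shares over all probe sets carry no such choice. The other probe sets of these genes are not shown. Enzymes that start the breakdown of tryptophan yield Ahr ligands such as kynurenine. Of 5 measured in WT, 1 rose and 1 fell, in PXR-KO 0 of 5 passed, and the median log2 fold changes were -0.10 and -0.18. Afmid, which makes kynurenine from its formyl precursor, rose 1.77-fold in WT, with treated animals from 0.64 to 0.94 and vehicle animals from -0.09 to 0.16 (limma adjusted p = 0.000497). Ido1, the inducible dioxygenase of the first step, fell 1.61-fold in WT, with treated animals from -1.03 to -0.36 (adjusted p = 0.0141). In PXR-KO mice their log2 fold changes were 0.28 and -0.18 (adjusted p = 0.433 and 0.71), and neither difference passed (adjusted p = 0.115 and 0.275).

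Of the chaperones and degradation factors of the receptor, 3 of 6 were measured. Hsp90aa1, an HSP90 chaperone that holds unliganded Ahr, rose 1.37-fold in WT (limma adjusted p = 0.0266), a call that remained only when WT vehicle animal 2 or 5 or CMP013 animal 5 was the animal left out and was lost without the 4 vehicle animals together (adjusted p = 0.132). No gene of the list passed in PXR-KO mice. Stub1, a ubiquitin ligase that acts on chaperone-bound Ahr, read from -0.38 to -0.07 in WT and from 0.06 to 0.30 in PXR-KO CMP013 animals, and its responses differed by -0.42 (adjusted p = 0.0196). That call was lost without the 4 vehicle animals (adjusted p = 0.0920) and under quantile normalization (adjusted p = 0.202).

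Among relatives of Ahr and Arnt and the coregulators that bind them, 13 of 13 were measured, and 0 rose and 1 fell in WT while 1 rose and 0 fell in PXR-KO mice. The histone acetyltransferase Ep300 fell 1.28-fold in WT (limma adjusted p = 0.0393), a call that remained only without WT vehicle animal 2 or CMP013 animal 2. Its responses differed by -0.48 (limma adjusted p = 0.0137), a call lost under quantile normalization (adjusted p = 0.211). Epas1, a hypoxia factor that also pairs with Arnt, read from -0.38 to -0.07 in WT CMP013 and from 0.29 to 0.43 in PXR-KO CMP013 animals. It rose 1.28-fold in PXR-KO (adjusted p = 0.0350, remaining only without CMP013 animal 3), was at -0.24 on the log2 scale in WT (adjusted p = 0.108), and its responses differed by -0.60 (adjusted p = 0.00111). The WT call of Ep300 and the PXR-KO call of Epas1 were lost without the 4 vehicle animals (adjusted p = 0.138 and 0.104). The list medians were -0.22 in WT and -0.03 in PXR-KO on the log2 scale.

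Other genes known to rise with Ahr ligands in rodents were measured for 12 of 18. In WT 2 of the 12 rose and 0 fell, a share near the 14.4% called over the array. In PXR-KO 4 of the 12 rose and 0 fell, beside 3.65% over the array, and the medians were 0.18 and 0.33. The genes that passed are Nqo1, Ugdh, Nfe2l2, Xdh and Gpat3, of which Nqo1, Ugdh and Nfe2l2 are also known targets of Nrf2, the regulator of antioxidant genes. Nqo1, a quinone reductase, rose 2.48-fold in WT (treated animals 1.06 to 1.49, limma adjusted p = 0.000137) and 1.82-fold in PXR-KO mice (treated animals 0.52 to 1.01, adjusted p = 0.0383), and the difference did not pass (0.45, adjusted p = 0.238). Ugdh, which makes the sugar donor of glucuronidation, rose 2.45-fold in WT (treated animals 1.26 to 1.36, adjusted p = 2.02e-05), was at 0.29 in PXR-KO (adjusted p = 0.160), and its responses differed by 1.01 (adjusted p = 3.44e-05).

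In PXR-KO mice Nfe2l2, which encodes Nrf2, rose 1.43-fold (limma adjusted p = 0.0276), the purine oxidase gene Xdh 1.39-fold (adjusted p = 0.0115) and Gpat3, an acyltransferase of triglyceride synthesis, 2.99-fold (adjusted p = 0.0374). Xdh was called in every fit without 1 PXR-KO animal. The PXR-KO calls of Nqo1 and Gpat3 remained only without vehicle animal 1 or CMP013 animal 5, and that of Nfe2l2 only without vehicle animal 1 or 3 or CMP013 animal 3. Without the 4 vehicle animals all 4 PXR-KO calls were lost (adjusted p = 0.134 for Nqo1, 0.128 for Nfe2l2, 0.0536 for Xdh and 0.120 for Gpat3). In WT Nfe2l2, Xdh and Gpat3 were at 0.23, 0.22 and 0.69 on the log2 scale (adjusted p = 0.0860, 0.129 and 0.130), and no difference passed (adjusted p = 0.154, 0.127 and 0.237). Selenbp1, a selenium-binding protein of hepatocytes, did not pass in WT (log2 fold change 0.10, adjusted p = 0.531) or without PXR (-0.40, adjusted p = 0.0727), while the difference of 0.50 did (adjusted p = 0.0196). That call was lost without the 4 vehicle animals (adjusted p = 0.138) and under quantile normalization (adjusted p = 0.131). Of the measured genes, Aldh3a1, Cd36, Slc46a3, Cyp2s1, Serpinb2 and Pmm1 passed in no comparison. In that order they were at -0.26, 0.005, -0.07, 0.12, 0.14 and 0.47 in WT (limma adjusted p from 0.358 to 0.993). In PXR-KO they were at 0.07, 0.74, -0.02, -0.02, 0.38 and 0.22 (limma adjusted p from 0.217 to 0.945).

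**Figure D4:**
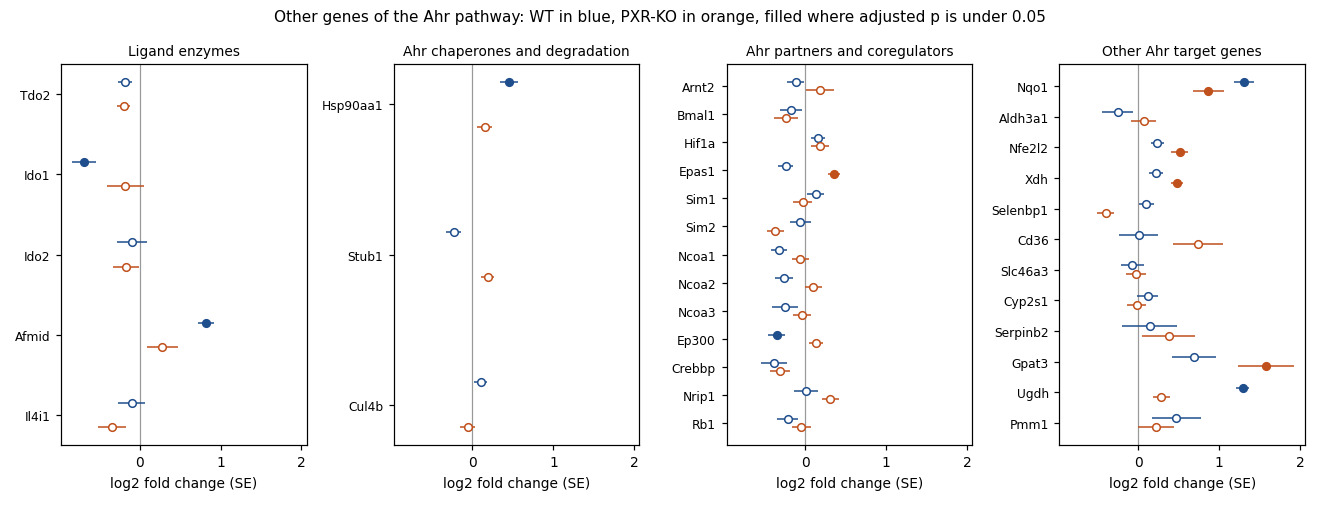
Log2 fold change with its SE (horizontal axis) of the listed genes around the Ahr pathway, WT in blue and PXR-KO in orange, filled where the limma adjusted p was under 0.05. Nqo1 is filled in both genotypes, and Xdh, Nfe2l2, Gpat3 and Epas1 in PXR-KO alone. Filled in WT alone are Ugdh, Afmid and Hsp90aa1 above 0 and Ido1 and Ep300 below 0.

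Cyp1a2 belongs to the hepatocytes around the central vein, so genes of that zone were read beside it. Of 10 measured, 2 rose and 1 fell in WT and 1 rose and 0 fell in PXR-KO mice, and the medians were 0.06 and 0.04. In WT, Oat (1.29-fold, limma adjusted p = 0.0182) and the ammonia transporter gene Rhbg (1.67-fold, adjusted p = 0.0230) rose and Gulo fell 1.36-fold (adjusted p = 0.0161). The Rhbg call was lost without WT vehicle animal 3, 4 or 5 or CMP013 animal 1 (adjusted p up to 0.0579). All 3 WT calls were lost without the 4 vehicle animals (adjusted p = 0.0883 for Oat, 0.128 for Rhbg and 0.0862 for Gulo), as was the difference of Glul described next (0.119). In PXR-KO the glutamate transporter gene Slc1a2 rose 1.78-fold (adjusted p = 0.00313). The responses differed for Slc1a2 (-0.79, adjusted p = 0.000796), Rhbg (0.98, adjusted p = 0.0270) and Glul (-0.31, adjusted p = 0.0379). The difference for Rhbg was lost without WT vehicle animal 4 or PXR-KO CMP013 animal 4. That for Glul was lost in 13 of the 20 fits without 1 animal and remained only without WT vehicle animal 3 or 5, WT CMP013 animal 3 or 4, PXR-KO vehicle animal 4 or 5, or PXR-KO CMP013 animal 2.

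Markers of other cells were read in the same comparisons, and their directions were mixed. Of 8 macrophage markers, 0 rose and 3 fell in WT (Csf1r, Vsig4 and Clec4f, by 1.49-fold, 1.37-fold and 1.31-fold, limma adjusted p = 0.00723, 0.0205 and 0.0322), and 2 rose and 0 fell in PXR-KO mice. Those 2 were Marco, a scavenger receptor (log2 fold change 4.22, adjusted p = 0.00894), and the lysosomal protein gene Cd68 (1.11, adjusted p = 0.00381). Marco varied widely, from -2.38 to 1.47 in PXR-KO vehicle and from 2.51 to 3.72 in PXR-KO CMP013 animals, and its PXR-KO call was lost without the 4 vehicle animals (adjusted p = 0.0648). Over the 8 markers the median log2 fold change was -0.24 in WT and 0.12 in PXR-KO. In PXR-KO Clec4f (-0.28), Csf1r (-0.19), Timd4 (0.00), Vsig4 (0.23) and Cd5l (0.37) did not pass. The list's mean log2 ratio per animal, to which Marco adds the largest values in PXR-KO CMP013 animals, ran from -0.45 to 0.21 in WT vehicle, from -0.45 to -0.13 in WT CMP013, from -0.54 to 0.59 in PXR-KO vehicle and from 0.37 to 0.78 in PXR-KO CMP013. The macrophage marker Adgre1 was at -0.19 in WT and -0.14 in PXR-KO and did not pass. The difference passed for Marco (-4.11), Cd68 (-0.92) and Vsig4 (-0.69, adjusted p = 0.0404). The WT call of Clec4f remained only without WT vehicle animal 3 or CMP013 animal 1, that of Vsig4 was lost without WT vehicle animal 4, and its difference remained only without WT vehicle animal 3, WT CMP013 animal 1, PXR-KO vehicle animal 4 or 5, or PXR-KO CMP013 animal 3. Without the 4 vehicle animals the WT call of Clec4f (adjusted p = 0.0601) and the difference of Vsig4 (adjusted p = 0.112) were lost.

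Of 6 markers of lymphocytes and neutrophils, 2 rose in WT (S100a8 and S100a9, both 2.17-fold, limma adjusted p = 0.0108 and 0.0226) and 1 in PXR-KO mice (S100a8, 4.24-fold, adjusted p = 0.0343), and 0 fell in either. The T cell gene Cd3e differed by -1.26 (adjusted p = 0.0380), lost in 12 of the 20 fits without 1 animal and remaining only without WT vehicle animal 1 or 5, WT CMP013 animal 1 or 4, PXR-KO vehicle animal 3, 4 or 5, or PXR-KO CMP013 animal 3. The list mean ran from -0.19 to 0.00 in PXR-KO vehicle and from 0.19 to 1.37 in PXR-KO CMP013 animals. In PXR-KO the log2 fold changes were 2.08 for S100a8, 2.05 for S100a9 (adjusted p = 0.147) and 0.94 for Cd3e (adjusted p = 0.138), against -0.45 and -0.15 for the B cell genes Ms4a1 and Cd79a (adjusted p = 0.0943 and 0.796). S100a9 in WT was lost without vehicle animal 5 or CMP013 animal 2, and S100a8 in PXR-KO remained only without CMP013 animal 3 or 5. Without the 4 vehicle animals the WT calls of S100a8 and S100a9 (adjusted p = 0.0617 and 0.0851), the PXR-KO call of S100a8 (0.158) and the difference of Cd3e (0.198) were lost. Of 6 endothelial markers, 0 rose and 4 fell in WT (Clec4g, Stab2, Oit3 and Kdr, by 1.53-fold, 1.55-fold, 1.52-fold and 1.40-fold, adjusted p from 0.00116 to 0.0105). In PXR-KO mice Lyve1 rose 2.17-fold (adjusted p = 0.00482) and Kdr fell 1.33-fold (adjusted p = 0.0469, lost without any single animal). Kdr was lost in both genotypes without the 4 vehicle animals (adjusted p = 0.0754 in WT and 0.180 in PXR-KO).

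Of 6 stellate markers, 0 rose and 2 fell in WT (Dcn 1.74-fold and Lrat 1.64-fold, limma adjusted p = 0.000331 and 0.00389) and 0 passed in PXR-KO mice. The 4 biliary markers gave 0 calls in either genotype. Of 6 hepatocyte markers, 1 fell in WT (Hnf4a 1.36-fold, limma adjusted p = 0.0199) and 0 passed in PXR-KO. The responses differed also for Lyve1, Clec4g, Dcn, Lrat and Hnf4a (-1.27, -0.57, -0.85, -0.81 and -0.82, adjusted p at most 0.00686). Since Cyp1b1 and Tiparp are also made outside hepatocytes, these marker values stand beside the Arnt, Tiparp and Cyp1b1 results, and their part in those results was not tested.

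Over the 20 arrays, the genes whose log2 ratios were most like those of Cyp1a1 were Lsp1, Nab1, Batf2, Pik3cb and Homez (Pearson r of 0.849, 0.754, 0.748, 0.745 and 0.733). None of these passed the test in any of the 3 comparisons. For Cyp1a2 they were Vdr, Mfsd13a, Ramp2, Tmem178 and Sod3 (r of 0.815, 0.808, 0.790, 0.783 and 0.766), of which Sod3 fell in WT (log2 fold change -0.56, limma adjusted p = 0.0197). These are descriptions over arrays that share 4 groups and a common vehicle mean per genotype. Cyp1a1 and Cyp1a2 had an r of 0.176 with each other, and Cyp1a1 had an r of 0.584 and 0.536 with Tiparp 1452160_at and 1452161_at. The r of Cyp1a1 was 0.057 with Tiparp 1426721_s_at and -0.203 with Ahrr. With Cyp1b1 1416612_at, 1416613_at and 1432081_at it was -0.161, -0.207 and -0.5.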

How the data were processed

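Liver RNA of 20 male mice, 4 groups of 5, was hybridized to Affymetrix Mouse430_2 arrays, 1 per animal without technical replication. With Rosetta Resolver 7.2 the authors set every animal's intensity against the average of its genotype's 5 vehicle mice and deposited the log10 ratio. Intensities, detection calls and platform p-values were not used here, so dim probe sets were kept and signal over background is unknown. The number of arrays limits the precision. Of 45037 probe sets, 34945 name 1 gene, 932 several and 9160 none in the platform annotation, 7 values stand at the limit of the log10 scale (2) and 0 are missing.

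The deposited log10 ratios were multiplied by 3.32 to give log2, with the authors' normalization kept. CMP013 was compared with vehicle by limma 3.58.1 (lmFit and eBayes) in R 4.3.3 on the 10 arrays of a genotype. All 20 arrays entered the fit for the difference, with Benjamini-Hochberg adjustment over all probe sets and a threshold of 0.05. Intervals are 95% and not adjusted. The fit was tested on simulated data with changes planted in WT CMP013 animals alone. The planted changes were larger than most of those reported here, so that test does not show how well smaller ones are found. Same-numbered vehicle and CMP013 animals did not deviate together (r from -0.242 to 0.0651), so the numbers are names.

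The member genes and lists were chosen with earlier results of these data known. Named are every member by all its probe sets, up to 4 called genes per list, direction and comparison, and the 5 genes most like Cyp1a1 and Cyp1a2. Outside this rule, Adgre1, Timd4, Cd5l, Ms4a1, Cd79a and the uncalled other Ahr targets were added with their values known. Of 90 list genes 79 had a probe set naming them alone, and the one without _s_ or _x_ first and then with the smallest vehicle SD was used. The remaining list genes were not analysed here. Alternatives were leaving out each animal, the replicate number as a block, all 4 groups in one fit, variances with trend and robust, a common median, quantile normalization, leaving out 4 vehicle animals that stood apart, probe sets of 1 gene only, and array weights. Their use on the lists was added after the data were seen. Quantile normalization gave vehicle and CMP013 arrays, whose SDs differ, the same distribution. It therefore changes the spread of both groups by design, and a call lost under it cannot alone be read as weak. Other software was Python 3.11.15 with pandas 2.3.3, numpy 2.4.6 and matplotlib 3.10.9, and version 1.17.8 of data.table in R.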

Additional observations from a re-analysis of the deposited data

Results flagged for a closer look

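Among the 64 groups of 5 animals (16 probe sets in 4 groups), 6 held an animal far from the other 4, and chance alone gives about 5%. PXR-KO vehicle animal 2 was low for Arnt 1419996_s_at (-0.97, the others -0.01 to 0.23) and for Tiparp 1452160_at (-0.52, the others 0.08 to 0.22). PXR-KO CMP013 animal 5 was low for Cyp1b1 1432081_at (-1.06, the others -0.19 to -0.01) and for Arnt 1437042_at (0.13, the others 0.38 to 0.47). WT vehicle animal 5 was low for Cyp1b1 1416612_at (-0.17, the others 0.02 to 0.06) and for Arnt 1449696_at (-0.81, the others -0.04 to 0.13).

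The responses of WT and PXR-KO mice differed for 3 probe sets by limma's test of the difference (WT minus PXR-KO, log2): Arnt 1419996_s_at (-1.75, adjusted p = 0.000417), Arnt 1437042_at (-0.54, adjusted p = 0.0126) and Tiparp 1452160_at (-0.80, adjusted p = 0.0233).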

How the results depend on the processing

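In WT mice the 1 call among the 16 probe sets (Arnt 1419996_s_at) became 0 under quantile normalization (log2 fold change -0.34, limma adjusted p = 0.266) and with all 4 groups in one fit (adjusted p = 0.102), and 0 to 1 probe sets were called with 1 animal left out. In PXR-KO mice the 3 calls became 0 with trend and robust variances, where no probe set of the array was called, 0 under quantile normalization, 0 without the 4 vehicle animals that stood apart, and 0 to 3 with 1 animal left out. In those 3 settings the adjusted p ran from 0.0511 to 0.0691 for Arnt 1419996_s_at, from 0.0918 to 0.134 for Tiparp 1452160_at and from 0.0692 to 0.140 for Tiparp 1452161_at, with log2 fold changes down to 1.03, 0.56 and 0.49. With array weights and with all 4 groups in one fit the PXR-KO calls became 4, since Arnt 1437042_at was gained (adjusted p = 0.0490 and 0.0202). The 3 calls of the difference became 1 (Arnt 1419996_s_at) under quantile normalization, where Arnt 1437042_at was at -0.47 (adjusted p = 0.112) and Tiparp 1452160_at at -0.61 (adjusted p = 0.152), and were 3 to 3 with 1 animal left out. Calls over all probe sets moved as well. Under quantile normalization they went from 6480 to 1752 in WT, from 1645 to 498 in PXR-KO and from 4936 to 1231 for the difference. Without the 4 vehicle animals they were 3308, 363 and 2544 in that order. With all 4 groups in one fit they were 7923 in WT and 3049 in PXR-KO, and with array weights 2213 in PXR-KO. The causes were not tested. With the replicate number as a block, the calls were 0 in WT (Arnt 1419996_s_at adjusted p = 0.0736), 0 in PXR-KO (0.120, 0.159 and 0.160 for the 3 probe sets) and 2 for the difference (Tiparp 1452160_at 0.0994), while over all probe sets WT went from 6480 calls to 3026 and PXR-KO from 1645 to 119.

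Cyp1a1 and Cyp1a2 were called in none of the settings run. The log2 fold change of Cyp1a1 ran from 0.04 to 0.16 in WT and from 0.12 to 0.32 in PXR-KO mice, and that of Cyp1a2 from -0.13 to -0.07 in WT and, with 1 animal left out, from -0.023 to 0.079 in PXR-KO.

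Signs turned for values that had not passed. Without the 4 vehicle animals these were, in WT, Arnt 1425064_at (-0.10), Arnt 1449696_at (0.033), Tiparp 1426721_s_at (0.028) and Tiparp 1452161_at (-0.067), and for the difference Cyp1b1 1416612_at (-0.028). With a common median they were Tiparp 1426721_s_at in WT (0.01) and Cyp1b1 1416613_at in PXR-KO (-0.003), with array weights Arnt 1425064_at (-0.001) and Arnt 1449696_at (0.007) in WT, and under quantile normalization Arnt 1449696_at in WT (0.029). With 1 animal left out, WT values crossed 0 for Cyp1b1 1416612_at (-0.123 to 0.035) and 1416613_at (-0.114 to 0.07), Arnt 1425064_at (-0.038 to 0.121) and 1449696_at (-0.237 to 0.09), and Tiparp 1426721_s_at (-0.051 to 0.033), 1452160_at (-0.111 to 0.034) and 1452161_at (-0.004 to 0.244). So did Cyp1b1 1416613_at (-0.063 to 0.096) and Cyp1a2 (above) in PXR-KO, and Cyp1b1 1416612_at (-0.052 to 0.164) and 1416613_at (-0.121 to 0.067) for the difference.

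Of the 4 other Ahr targets called in PXR-KO mice, 0 were called with the block, trend and robust variances, quantile normalization or without the 4 vehicle animals (adjusted p from 0.0536 to 0.159), whereas Nqo1 and Ugdh in WT were called in all settings run. Of the calls among all list genes (21 in WT, 11 in PXR-KO and 17 for the difference), 12, 3 and 12 remained without the 4 vehicle animals, 6, 4 and 7 under quantile normalization (Afmid, Nqo1, Ugdh, Stab2, Clec4g and Dcn in WT, Slc1a2, Marco, Cd68 and Lyve1 in PXR-KO), and 10, 1 and 12 with the block. Signal over background is unknown here, so a small change of a dim gene may have gone undetected.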
